A study of Mus musculus with 4 samples.

Results

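Kit ligand (Kitl, also known as stem cell factor) and its receptor Kit were followed across mouse embryonic stem (ES) cells with and without Snai1, the gene of the transcriptional repressor Snail. Both genes were selected on their knockout against control values in these arrays, so their differences are given here as a description without a test. All probe sets that the array annotation maps to exactly 1 gene were taken when that gene was Kitl or Kit. This gave 6 of 34945 such probe sets, 4 for Kitl and 2 for Kit, and 2 of 18193 genes.

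Total RNA was hybridised to 4 Affymetrix arrays after labelling from the 3' end. There were 2 arrays of Snai1 knockout ES cells, whose titles read KO.ES, and 2 arrays of control ES cells, whose titles read F/F.ES and whose genotype field reads control. The source name of the control samples also contains the words knock out, and F/F is not explained, so every direction below rests on the titles and the genotype field. Both groups were grown with leukaemia inhibitory factor (LIF), a cytokine that maintains self-renewal, on feeder cells and without further treatment. The labels name neither the strain, the parental line, the deleted part of Snai1 nor the kind of feeder cell. The arrays of a group are called biological replicates without a statement of what separated them, so standard deviations and p-values cover only the spread among these samples, which may be technical.

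Kit is a receptor tyrosine kinase of the family that also holds the platelet-derived growth factor receptors. Its ligand is made as a transmembrane protein that acts on neighbouring cells or, after cleavage, as a soluble factor, and binding makes Kit dimerise and signal through adaptor proteins, phosphatidylinositol 3-kinase and the ERK cascade. The pair is known for the survival and migration of germ cells, melanocytes, mast cells and blood progenitors. Fibroblasts are a well-known source of Kit ligand, which matters for a culture that holds feeder cells.

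In the RefSeq gene table (assembly GRCm38.p6), Kitl spans 84.8 kb of chromosome 10, from 100015615 to 100100416, and Kit spans 81.7 kb of chromosome 5, from 75574987 to 75656722. Snail binds E-boxes, so the 250 bases upstream of the RefSeq transcript starts were searched for the general E-box CANNTG and, within it, for CAGGTG and its reverse complement CACCTG. Neither gene held a CANNTG in this window (0 matches in the 1 Kitl window and in both Kit windows), whereas 66.2% of the 32851 upstream windows in the RefSeq promoter table held one and 17.2% held CAGGTG or CACCTG. The last 30 bases before a start of each gene are shown because they differ in a core element. The capitals mark TATAAA on the plus strand, a match present in 7.59% of all windows. The Kitl stretch lies at chr10:100015791-100015820 and the Kit stretch at chr5:75574957-75574986, both on the plus strand of GRCm38.p6, and the Kitl stretch falls inside the gene span, which begins farther upstream.
Kitl: agctgTATAAAaagcgctggcggcgcagca
Kit: ctagtggctctgggggctcggctttgccgc
Both windows were rich in G and C, at 69.2% for Kitl and 70.8% for Kit. A match or its absence describes these letters only.

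Kitl was lower in the knockout on its brightest probe set, 1415855_at. Its deposited log2 value was 6.81 and 6.24 in knockout replicates 1 and 2, against 7.64 and 7.69 in control replicates 1 and 2. Both knockout arrays lay below both control arrays, by at least 0.82, and the knockout pair stood farther apart (0.57) than the control pair (0.05). The means were 6.53 ± 0.40 and 7.66 ± 0.04 (SD, n = 2 each), a knockout minus control difference of -1.13 ± 0.20 (limma's moderated SE), or 2.19-fold less signal in the knockout. In RNA from whole cultures, fewer Kitl-expressing cells and less Kitl RNA per cell cannot be told apart.

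The second probe set in brightness, 1448117_at, which the annotation ties to the same accession as the first, lay at 5.23 and 5.00 in the knockout against 5.80 and 5.72 in the control. All 4 values exceeded the background, taken as the range of 2.91 to 4.77 that 27 control probe sets for Bacillus transcripts gave over the 4 arrays. The difference had the same direction and a smaller size, -0.64 ± 0.14 (SE).

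The other Kitl probe sets were at background. Probe set 1426152_a_at, tied to another accession, read 4.56 and 4.37 in the knockout against 4.81 and 4.59 in the control, with 1 of 4 arrays above the background range and a difference of -0.24. Probe set 1415854_at read 3.81 and 3.94 in the knockout against 4.03 and 4.10 in the control, all within the range, and differed by -0.19. No fold is given for either. In each of the 4 Kitl probe sets both knockout arrays lay below both control arrays. The same was true of 27.8% of all single-gene probe sets, of 38.3% of those at a mean of 6 or more, and, for all probe sets of a gene together, of 41 of the 1093 genes with 4 probe sets (3.75%). Because this contrast was used to choose the gene, nothing is read from these shares.

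**Figure D1:**
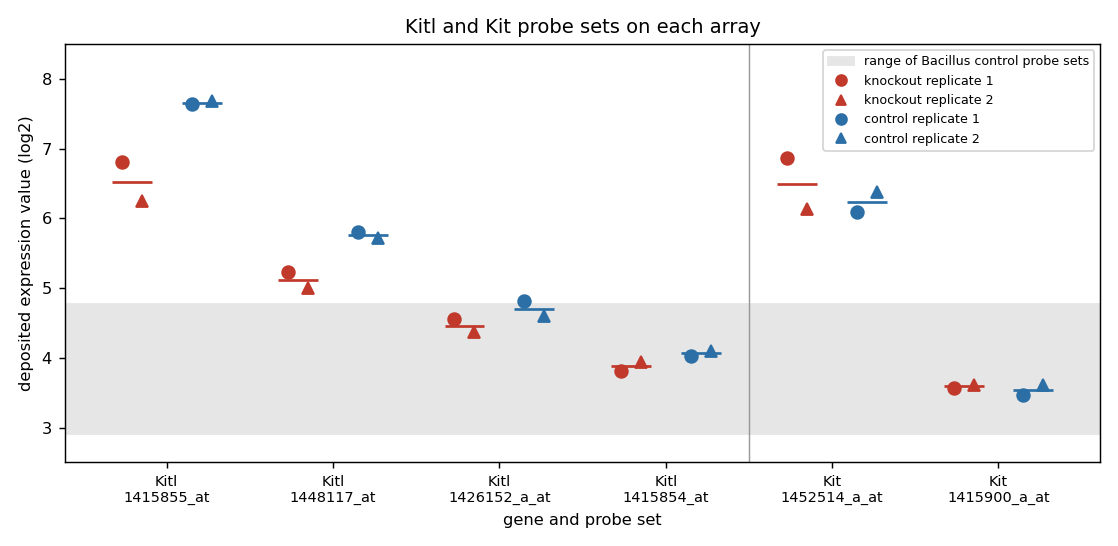
Deposited log2 values (y axis) of the 4 Kitl and 2 Kit probe sets (x axis) on each of the 4 arrays, with circles for replicate 1, triangles for replicate 2 and short lines for group means; the grey band runs from 2.91 to 4.77, the background range. The brightest Kitl probe set sits at 6.24 and 6.81 in the knockout against 7.64 and 7.69 in the control, whereas the groups overlap for the Kit probe set above background.

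Kit, the receptor, did not separate the groups. Its brighter probe set, 1452514_a_at, was at 6.86 and 6.13 in knockout replicates 1 and 2, against 6.09 and 6.38 in control replicates 1 and 2. Knockout replicate 1 was the highest array, and the other 3 lay within 6.09 to 6.38, so the groups overlapped. Over all single-gene probe sets, 51.5% had groups that did not overlap. The means were 6.50 ± 0.51 and 6.23 ± 0.20 (SD, n = 2 each). Their difference of 0.26 had an SE of 0.25, and it turned to -0.10 without knockout replicate 1 and grew to 0.63 without knockout replicate 2. Knockout replicate 1 therefore decides the sign. The remaining Kit probe set, 1415900_a_at, lay within the background range on all 4 arrays, at 3.57 and 3.60 in the knockout against 3.47 and 3.61 in the control.

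The replicate gap of Kit in the knockout, 0.73, was large for this data set. Among single-gene probe sets whose mean was 6 or more, the median gap between the knockout arrays was 0.19, and 3.80% of them had a gap of 0.7 or more. The gap of 0.57 for the brightest Kitl probe set also lay above this median and below the gap of 0.64 that marks 95% of probe sets.

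Other measures differed between the same arrays. The gap between the 3' and 5' control probe sets of Actb, which widens when RNA is degraded or labelling stops short, was 1.11 and 0.80 in the knockout arrays against 3.02 and 2.97 in the control arrays. For Gapdh it was 0.40 and 0.27 in the knockout against 1.24 and 1.48 in the control. Both gaps separated the groups without overlap, in the same arrays that separate on Kitl, and their part in the Kitl difference was not tested. Genes that span more of the genome were also lower in the knockout: among genes with a mean of at least 6, the median difference was 0.11 for the 2349 genes under 10 kb and -0.27 for the 1265 genes of 60 to 120 kb, the class that holds Kitl and Kit. The middle range of that class, between its lower and upper quartiles, ran from -0.52 to 0.02. Kitl lay below it at -1.13 and Kit above it at 0.26. Both genes were chosen on this contrast, so nothing is read from their places. With the dependence on gene span and level taken out of each array (the span trend, an alternative added after seeing the data), Kitl differed by -0.96 and Kit by 0.40.

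Feeder cells could add Kitl signal, so fibroblast markers were read on the same arrays. The mean of 27 markers was 7.43 and 6.78 in knockout replicates 1 and 2, against 7.65 and 7.07 in control replicates 1 and 2. It was higher in replicate 1 than in replicate 2 in both groups, for 23 of 27 markers in the knockout and 24 of 27 in the control. The group means were 7.11 and 7.36, a difference of -0.25 against -1.13 for Kitl. Of the 27 markers, 5 lay lower in both knockout arrays than in both control arrays and 2 lay higher in both, 18.5% and 7.41% of the list against 29.2% and 23.1% of all genes. Prrx1, a mesenchymal transcription factor gene, differed most, at 6.83 and 6.09 in the knockout against 8.02 and 7.39 in the control (-1.24 ± 0.28, SE, limma adjusted p = 0.0549). Col1a2, a chain of type I collagen, was at 9.92 and 8.70 in the knockout against 10.27 and 8.86 in the control, with replicate 1 the higher array in both groups. Kitl shared the replicate order in the knockout (0.57 higher in replicate 1) and not in the control (0.05 lower in replicate 1). With the brightest probe sets, no fibroblast marker passed the limma threshold, an adjusted p of 0.05 over all 18193 genes. Of all genes 4.14% passed it. At an unadjusted p under 0.05, 3 of 27 (11.1%) were lower and 0 higher. The shares were 14.9% and 9.06% of all genes, and 24.7% and 14.2% of those with a mean of at least 6. Whatever their p, 17 of the 27 were lower in the knockout and 10 higher, with a median difference of -0.26. The part of feeder RNA in the Kitl values was not tested.

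**Figure D2:**
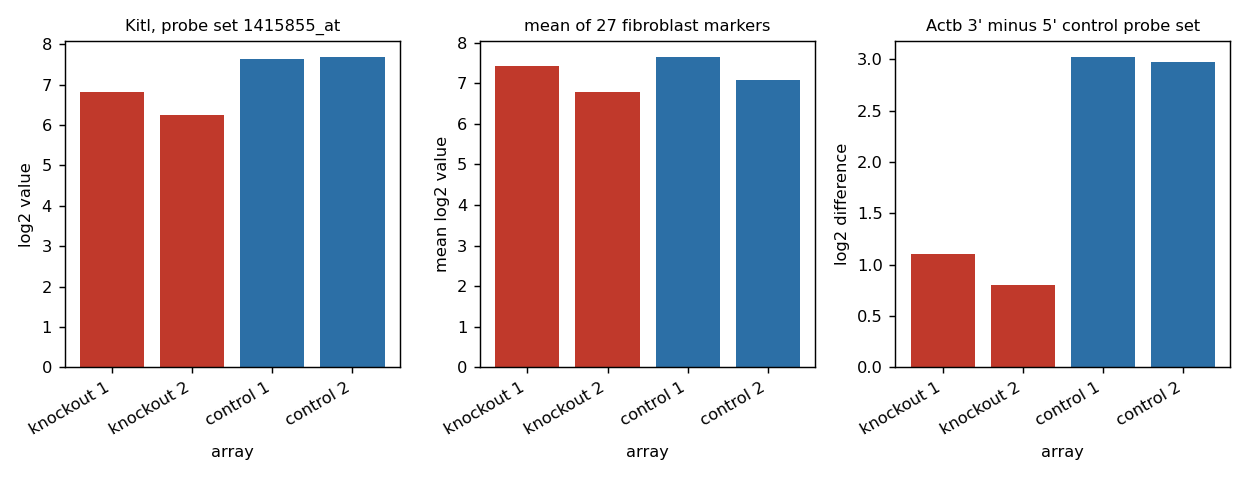
Values of each array (x axis; red bars knockout, blue bars control) for the brightest Kitl probe set (left, log2 value), the mean of 27 fibroblast markers (middle, mean log2 value) and the Actb 3' minus 5' gap (right, log2 difference). The fibroblast mean follows the replicate number in both groups, while the Actb gap and Kitl are higher in both control arrays.

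ES cell markers were bright in every array. All 12, among them Pou5f1, which encodes Oct4, and Sox2, exceeded the background range throughout. Of all genes 1.98% rose in the knockout, as did 333 of the 9484 genes averaging at least 6. Of the 12 markers 4 (33.3%) rose and 0 fell. On their brightest probe sets these were Utf1 (1.62 ± 0.15, SE, limma adjusted p = 0.00905), Esrrb (1.05 ± 0.20, SE, limma adjusted p = 0.0426), Nanog (0.94 ± 0.15, SE, limma adjusted p = 0.0340) and Pou5f1 (0.85 ± 0.14, SE, limma adjusted p = 0.0340). Sox2 did not pass, at 12.03 in the knockout against 12.05 in the control. Signs were mixed in the list, with 8 of the 12 higher in the knockout and 4 lower, Fgf4 the lowest (-0.38). The median difference was 0.02. Esrrb missed the threshold with probe sets averaged. With 1 array left out, where a group holds a single array, these calls were mostly lost. The list's mean was 11.42 and 11.30 in the knockout against 10.98 and 11.10 in the control. Snai1 itself, on its single probe set, read 3.79 and 4.04 in the knockout against 4.41 and 4.69 in the control, all within the background range, so its level does not check the labels.

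The genes through which Kit signals were read as a list that leaves out Kit and Kitl. Of 66 entries 56 were measured, and 2 rose and 1 fell in the knockout (limma, Benjamini-Hochberg adjusted p under 0.05), where 1.98% of all genes rose and 2.17% fell. Those 3 members are 5.36% of the list, against 4.14% of all genes tested and 7.29% of genes with a mean of at least 6, so the share lay near the background. The median difference of the list was -0.11, against -0.02 over all genes and -0.09 over genes with a mean of at least 6. At an unadjusted p under 0.05, 9 members (16.1%) were higher and 14 (25%) lower, against 9.06% and 14.9% of all genes and 14.2% and 24.7% of those with a mean of at least 6.

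Gab1, a docking protein that gathers phosphatidylinositol 3-kinase and the phosphatase Ptpn11 at activated receptors, fell from 11.77 and 11.60 (control) to 11.04 and 10.69 (knockout). The difference was -0.82 ± 0.16 (SE, limma adjusted p = 0.0453), and the gene's other bright probe sets differed by -0.44 and -0.85. Grb7, an adaptor that binds phosphorylated receptors through its SH2 domain, rose from 7.87 and 8.17 to 8.79 and 8.85, by 0.80 ± 0.15 (SE, limma adjusted p = 0.0430). Shc1, an adaptor that links receptors to Ras, rose from 7.59 and 7.52 to 8.41 and 8.12, by 0.71 ± 0.15 (SE, limma adjusted p = 0.0490). Its dimmer probe set, at a mean of 5.38, differed by -0.09. These 3 adaptors thus moved in both directions.

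Neither Gab1 nor Shc1 passed when a gene's probe sets were averaged or after removal of the span trend, whereas Grb7, which has 1 probe set, passed in both. With an intensity trend in limma's eBayes step only Gab1 of the 3 passed. Shc1 also missed the threshold when each array was centred on its median. With any 1 array left out, no member of the list passed with limma (16 to 24 members at an unadjusted p under 0.05).

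Receptors related to Kit and their ligands formed a second list, with 17 of 18 entries measured. In it 1 gene rose and 2 fell, 17.6% of the list against 4.14% of all genes, with a median difference of 0.00. Each gene that passed encodes a ligand. Pdgfc, a ligand of platelet-derived growth factor receptor alpha, fell from 9.46 and 9.83 (control) to 8.35 and 8.76 (knockout), by 1.09 ± 0.19 on the log2 scale (SE, limma adjusted p = 0.0401). A further bright probe set of Pdgfc differed by -0.92. Vegfc, a ligand best known for lymphatic vessels, fell from 6.54 and 6.67 to 5.59 and 5.97, by 0.83 ± 0.17 (SE, limma adjusted p = 0.0456), and its dimmer probe sets differed by -1.11 and -0.63. Vegfb, a ligand of the receptor Flt1, rose from 6.97 and 7.23 to 7.81 and 7.76, by 0.69 ± 0.15 (SE, limma adjusted p = 0.0495).

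Among the receptors, Pdgfra, which encodes the alpha receptor and neighbours Kit on chromosome 5, read 6.72 and 6.26 in the knockout against 7.47 and 7.19 in the control. That difference of -0.84 ± 0.19 (SE) did not pass (limma adjusted p = 0.0550). Kdr, the vascular endothelial growth factor receptor on the other side of Kit, read 5.91 and 5.96 in the knockout against 5.96 and 5.77 in the control, a difference of 0.07 ± 0.14 (SE, limma adjusted p = 0.819). With probe sets averaged only Vegfc of the 3 ligands passed, and with an intensity trend only Pdgfc did. Vegfb also missed the threshold with each array centred on its median. After removal of the span trend none of the 17 genes passed with limma. At an unadjusted p under 0.05 there were 6, against 4098 of all 18193 genes. The calls of the 3 ligands were also lost with any 1 array left out, where a group holds a single array. Their differences then ran from -1.29 to -0.88 for Pdgfc, -1.02 to -0.64 for Vegfc and 0.56 to 0.82 for Vegfb.

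A further list held transcription factors known to act on Kit and proteases that shed its ligand. Of 20 entries 19 were measured, and 1 rose and 2 fell, 15.8% of the list against 4.14% of all genes, with a median difference of -0.12. Mitf, a transcription factor of melanocytes and mast cells that activates Kit, fell from 6.58 and 6.85 (control) to 5.97 and 5.98 (knockout), by 0.74 ± 0.15 (SE, limma adjusted p = 0.0453). Myb, a transcription factor of blood progenitors, fell from 8.98 and 9.32 to 8.13 and 8.29, by 0.94 ± 0.16 (SE, limma adjusted p = 0.0385), and its other probe sets differed by -0.93 and -0.92. Ldb1, a bridging cofactor in complexes with Lmo2, Tal1 and Gata factors, rose from 6.38 and 6.94 to 7.84 and 8.12, by 1.31 ± 0.21 (SE, limma adjusted p = 0.0340). Ldb1 also passed with the span trend removed and with probe sets averaged, Myb only with the trend removed, and Mitf in neither. With an intensity trend Ldb1 and Myb passed and Mitf did not. With any 1 array left out, where a group holds a single array, all 3 calls were lost. The differences then ran from 1.03 to 1.59 for Ldb1, -1.11 to -0.77 for Myb and -0.88 to -0.60 for Mitf. The Actb gap separates the groups for every gene in these 3 lists as it does for Kitl.

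**Figure D3:**
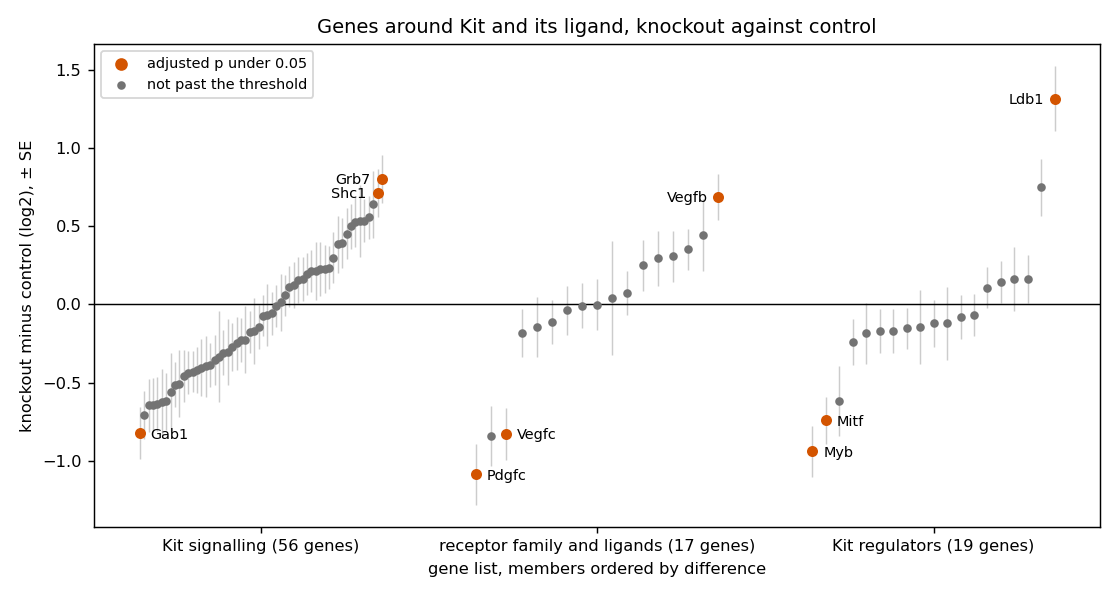
Knockout minus control differences (y axis, log2, bars show limma's SE) of the measured members of the 3 lists, ordered by difference within each list (x axis); orange points passed an adjusted p of 0.05 over all genes and are named. In the signalling list 2 genes rose and 1 fell, and in each of the other lists 1 rose and 2 fell.

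The genes next to each locus were read to see how their surroundings behaved. Around Kitl, the 3 nearest measured genes on each side lay 256 to 818 kb away on chromosome 10, and of these 6 genes 3 fell and 0 rose. Over all genes 2.17% fell, and of the 9484 genes with a mean of at least 6, 358 fell. Dusp6, a phosphatase that switches off ERK and is itself induced by ERK signalling, fell from 10.15 and 10.39 (control) to 9.57 and 9.45 (knockout), by 0.76 ± 0.15 (SE, limma adjusted p = 0.0441). Cep290, a ciliary protein gene, fell by 0.67 ± 0.14 (SE, limma adjusted p = 0.0494), and the gene model 4930430F08Rik by 0.62 ± 0.13 (SE, limma adjusted p = 0.0487). Cep290 did not pass after removal of the span trend or with probe sets averaged, whereas Dusp6 and 4930430F08Rik passed in both. Averaging left the differences of Dusp6 and Cep290 unchanged, so for them it does not compare probe sets. With a further quantile normalization only Dusp6 passed. With any 1 array left out, where a group holds a single array, all 3 calls were lost. The differences then ran from -0.88 to -0.64 for Dusp6, -0.77 to -0.57 for Cep290 and -0.65 to -0.59 for 4930430F08Rik. Tmtc3 (-0.17), Poc1b (-0.30) and Csl (0.29, within the background range on all arrays) did not pass. Around Kit, none of the 3 nearest measured genes on each side, 276 to 530 kb away, passed with limma (1 of the 6 at an unadjusted p under 0.05). They were Pdgfra and Kdr, already given, with Gsx2 (0.12, within the background range on all arrays), Chic2 (0.18), Srd5a3 (0.22) and Tmem165 (-0.28). Probe sets of Chic2 and Srd5a3 did not share a sign, with other bright ones at -0.57 for Chic2 and at -0.43 and -0.10 for Srd5a3.

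Finally, genes with an array profile like that of each member were ranked. Each profile was the brightest probe set's 4 values minus their mean, and likeness was the root mean square difference between profiles over the 4 arrays, among 9255 genes with a mean of at least 6. For Kitl the closest were Rabgef1 (0.04), Cxadr (0.06), Man1a2 (0.09), Bivm (0.10) and Chfr (0.10), against a median of 0.57 over all genes compared, and 4 genes came within 0.1. Rabgef1, which acts on the endosomal GTPase Rab5, read 7.997 and 7.50 in the knockout against 8.82 and 8.96 in the control. Its other probe sets differed by -0.91 and, for the dimmer one, by 0.11. Cxadr, a junction protein, read 7.21 and 6.69 in the knockout against 8.16 and 8.04 in the control, although another bright probe set of Cxadr differed by 0.13. Rabgef1 and Cxadr share with Kitl a lower value in knockout replicate 2 and nearly level control arrays, a pattern that the ranking selects for.

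For Kit the closest profiles were Prdm14 (0.04), Zic2 (0.04), Mau2 (0.05), Ext2 (0.06) and Rpn2 (0.07), and 15 genes came within 0.1, against a median of 0.37. Prdm14, a transcription factor of ES cells and primordial germ cells, read 8.03 and 7.37 in the knockout against 7.31 and 7.64 in the control. Its highest value was in knockout replicate 1 and its groups overlapped, again a pattern that the ranking selects for. Zic2, a zinc finger transcription factor, read 8.06 and 7.43 in the knockout against 7.29 and 7.61 in the control. Other bright probe sets of Mau2 differed by 0.04, 0.23 and 1.59, against 0.21 for its brightest. The profiles of Kitl and Kit differed from each other by 0.71. With 4 arrays a likeness of this kind describes these samples only.

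**Figure D4:**
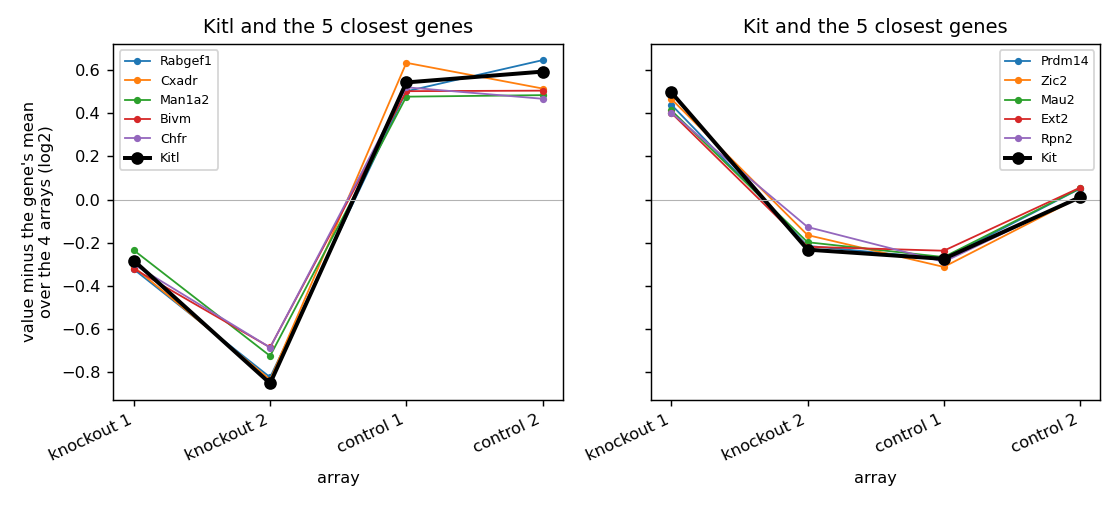
Array profiles (y axis, log2 value minus the gene's mean over the 4 arrays; x axis, array) of Kitl (left, black) and Kit (right, black) with the 5 closest genes in colour. As the ranking selects for, the Kitl group is lower in both knockout arrays, and the Kit group is highest in knockout replicate 1.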

How the data were processed

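Values deposited by the authors were on a log2 scale, with 45101 probe sets on each of 4 arrays, with array medians of 4.91 to 4.95. The submitters' processing notes name RMA and limma without versions, with their order and settings not given in the sources used here. RMA equalises array distributions, so a shift common to most genes would not show. The values were used as deposited. Probe sets were named through the platform annotation. A gene was represented by its brightest single-gene probe set, and RefSeq tables (GRCm38.p6) gave spans, neighbours and promoter windows. Knockout and control were compared with limma 3.58.1 in R 4.3.3 over all 18193 genes (two-sided, Benjamini-Hochberg threshold 0.05), with 2 residual and 5.31 prior degrees of freedom; the script was tested on simulated data. The number of arrays limits the precision. Members, lists and the naming rule (up to 4 members per list with the largest change past the threshold, Pdgfra, Kdr, Mitf, Snai1, the 3 nearest genes on each side, the 5 closest profiles) were chosen with earlier results of these data known. Alternatives were an intensity trend, quantile normalization, median centring, a dim filter, probe sets averaged or tested singly, a replicate block, each array left out, and, added after seeing the data, removal of the span trend. Probe sets without exactly 1 symbol were left out.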

Additional observations from a re-analysis of the deposited data

How the results depend on the processing

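Kitl stayed lower in the knockout under each alternative run on it, at -1.42 to -0.85 with 1 array left out, and at -0.55 with its 4 probe sets averaged, a mean that takes in those at background. Kit ranged from -0.10 to 0.63 with 1 array left out, negative without knockout replicate 1. Genes past the threshold numbered 754, and 481 with an intensity trend, 1224 with the dim filter, 321 with probe sets averaged, 276 with probe sets tested singly and 4 to 50 with 1 array left out (assuming that the single array left in a group varies as the other group does). The signalling list (3) gave 1 with an intensity trend and 1 with probe sets averaged, as did the receptor family list (3). The latter gave 0 with the span trend removed. The regulator list (3) gave 1 with probe sets averaged. Each list gave 0 to 0 with 1 array left out, and fewer samples entered those fits. Replicate numbers are shared between groups, and the replicate 1 minus replicate 2 differences correlated across genes at 0.29. With 2 numbers this is no pairing. With the replicate block 3092 genes passed, with 19 members of the signalling list (8 higher, 11 lower), 4 of the receptor family list and 5 of the regulator list. Among the 22 other genes followed, the sign turned only for genes that had not passed: Poc1b (0.054) and Chic2 (-0.20) with probe sets averaged, Tmtc3 (0.0042) with the span trend removed, and with 1 array left out Poc1b (-0.62 to 0.013), Srd5a3 (-0.048 to 0.48) and Kdr (-0.021 to 0.17). The causes were not tested.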

Other observations

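Genes of other cells that use Kit were read on the same arrays. Of 8 measured germ cell genes, all above background on every array, Mael, a piRNA pathway gene, fell from 6.55 and 6.88 (control) to 5.78 and 5.95 (knockout) (-0.85 ± 0.16, SE, limma adjusted p = 0.0430), and none rose. That is 12.5% of the list, against 2.17% of all genes that fell. Mael has 1 probe set, so averaging probe sets leaves its own values unchanged. Mael did not pass with probe sets averaged or with any 1 array left out. Dazl, an RNA-binding protein gene of germ cells, differed by -0.77 ± 0.20 (SE, limma adjusted p = 0.0686) and Ddx4, a germ cell helicase gene, by -0.45 ± 0.16 (SE, limma adjusted p = 0.145). At an unadjusted p under 0.05, 4 of the 8 were lower and 0 higher, against 14.9% of all genes lower and 9.06% higher. Among genes with a mean of at least 6, as 7 of the 8 have, 24.7% were lower and 14.2% higher. The median difference of the list was -0.29, against -0.02 over all genes. Sycp3 (0.32) and Prdm14 (0.22) were higher in the knockout and the other 6 lower.

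Mast cell genes were mostly at background. Of 8 measured, 6 lay within the Bacillus range on all 4 arrays, among them Cpa3, a mast cell carboxypeptidase, and Fcer1a, a subunit of the IgE receptor, and 0 passed with limma (0 at an unadjusted p under 0.05). Of 7 melanocyte genes 3 lay within that range on all arrays, including the pigment enzyme gene Tyr. Another 3 lay above it on all arrays, among them Pmel at 6.84 to 7.31 and Sox10 at 6.38 to 6.63. Only Mitf passed, 14.3% of the list against 4.14% of all genes. Of 9 blood progenitor genes, 2 lay within that range on all arrays, Cd34 and Ptprc, the leukocyte antigen CD45. Above it on all arrays lay 6, among them Gata2 and Runx1. In this list 0 passed with limma, and 1 (11.1%) was lower at an unadjusted p under 0.05, against 14.9% of all genes.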
